A study of Mus musculus with 4 samples.

Results

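The Maf and Bach genes encode a family of basic leucine zipper (bZIP) transcription factors, and 6 of them were followed here in T helper 17 (Th17) cells, the CD4 T cells that make IL-17: the large Maf gene Maf (c-Maf), the small Maf genes Maff, Mafg and Mafk, and Bach1 and Bach2. They were taken by gene symbol, and each had 1 row in a table of 23356 gene rows. All 6 were tested by the authors and were above 1 FPKM in both groups, so none was lost to a filter on low values. The cells came from C57BL/6 mice aged 6 to 8 weeks and were kept for 48 h in Th17 culture, either with vehicle (2 libraries) or with recombinant mouse SAA1 (serum amyloid A1, an acute-phase protein that gut epithelium also makes), at 2 ng/ml as labelled (2 libraries). Titles of the control libraries say veh, taken as vehicle, while their treatment label is none. No source used here gives the cytokines of the culture or says whether libraries came from separate mice or cultures, so p-values may measure only technical spread. The table gives 1 value per group in FPKM, a fragment count scaled to transcript length and to the fragments mapped, so there is no spread between libraries to show and depth is unknown.

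Large Maf proteins carry a transactivation domain and can switch genes on. Small Maf proteins lack one, and act as repressors when paired with each other or as partners of the cap'n'collar (CNC) factors, such as Nrf2, and of the Bach proteins. All of them read Maf recognition elements, DNA sites that extend the AP-1 site. In T cells, Maf is known as a regulator of IL-10 and IL-21, Bach2 as a repressor that restrains effector differentiation at sites shared with AP-1, and Bach1 as a haem-sensing repressor of antioxidant genes.

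Maf was the only member that passed the test. Its value was 2.87 FPKM with vehicle and 14.9 FPKM with SAA1, a 5.18-fold rise, or 2.37 ± 0.25 on the log2 scale (± the SE that the authors' test statistic implies). The 95% interval drawn from that SE runs from 3.69-fold to 7.27-fold, and the authors' deposited table gives it an adjusted p of 0.0019, the lowest value there, which 300 genes share. Of all 11481 tested genes, 3.97% were called higher and 2.55% lower at an adjusted p under 0.05, 6.52% in either direction. Among the 456 genes called higher, Maf had the 17th largest log2 ratio. More cells that carry the transcript and more RNA per cell cannot be told apart in such bulk samples.

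None of the small Maf genes was called. Mafk, a small Maf protein that pairs with Bach and CNC factors, was at 23.4 FPKM with vehicle and 23.7 FPKM with SAA1. Its log2 ratio was 0.02 ± 0.21, with an adjusted p of 0.98 by the authors' deposited table and a 95% interval from 0.763-fold to 1.34-fold. Mafg, its close relative, was at 18.6 and 22.8 FPKM, with a log2 ratio of 0.29 ± 0.22 and an adjusted p of 0.35 by the authors' deposited table. The 95% interval of Mafg runs from 0.906-fold to 1.65-fold, wider than that of Mafk.

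Maff, the third small Maf gene, was at 6.08 FPKM with vehicle and 8.04 FPKM with SAA1. Its log2 ratio of 0.40 ± 0.26 had an unadjusted p of 0.027 and an adjusted p of 0.21 by the authors' deposited table. Summed, the small Maf genes came to 48.1 FPKM with vehicle and 54.5 FPKM with SAA1. Mafk made up 48.6% and 43.4% of that sum, Mafg 38.7% and 41.8%, and Maff 12.6% and 14.7%.

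Bach2 had the highest level of the 6 genes in both groups, and Bach1 the lowest. Bach2 was at 28.4 FPKM with vehicle and 27.5 FPKM with SAA1. Its log2 ratio was -0.05 ± 0.20, with an adjusted p of 0.96 by the authors' deposited table and a 95% interval from 0.736-fold to 1.27-fold. Its row shares its locus with BC024582, a row at 0.516 and 0.703 FPKM, so reads of the overlap could belong to either. Bach1 was at 1.92 and 2.55 FPKM, with a log2 ratio of 0.41 ± 0.25, an unadjusted p of 0.022 and an adjusted p of 0.19 by the authors' deposited table.

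**Figure D1:**
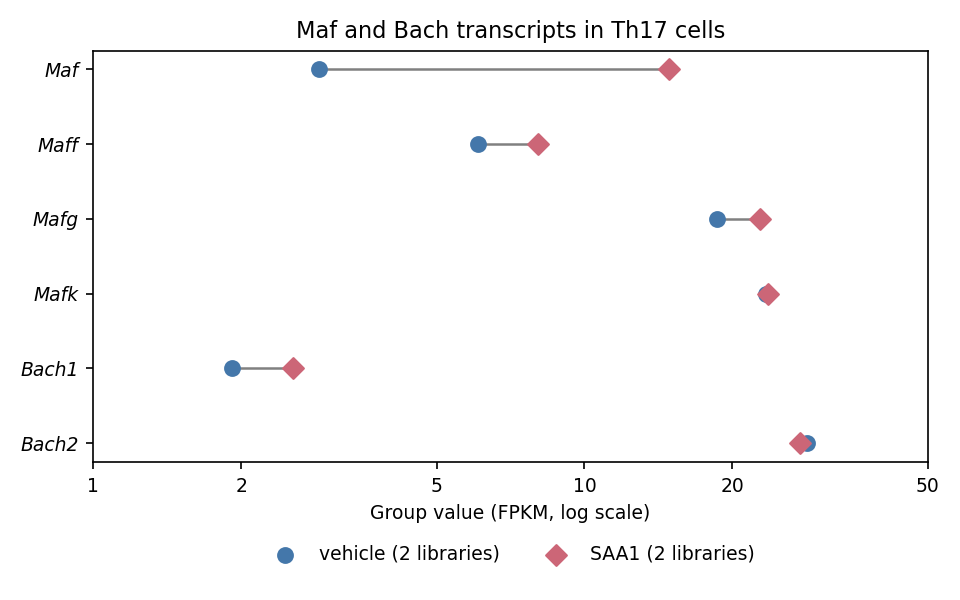
Group values of the 6 genes in FPKM on a log axis, with a circle for vehicle and a diamond for SAA1, each a single value from 2 libraries. Maf moved from 2.87 to 14.9 FPKM, while the circle and diamond of Mafk and of Bach2 overlap.

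Of the 3 members at an unadjusted p under 0.05 (Maf, Bach1 and Maff), all higher with SAA1, 1 had an adjusted p under 0.05. Of all tested genes, 15.8% had an unadjusted p under 0.05, and 8.22% had one and were higher. The deposited p-values of Bach1 and Maff are smaller than a normal distribution gives for the deposited statistic, which is 0.105 for Bach1 and 0.120 for Maff (two-sided, from the log2 ratio over its SE). The 95% interval runs from 0.942-fold to 1.88-fold for Bach1 and from 0.930-fold to 1.88-fold for Maff. The 95% interval of Maf, from 1.89 to 2.86 on the log2 scale, lies above the upper ends of the other 5 members, the highest of which is 0.91. The difference between members was not tested. The median log2 ratio of the 6 members was 0.35, and that of all tested genes -0.02.

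**Figure D2:**
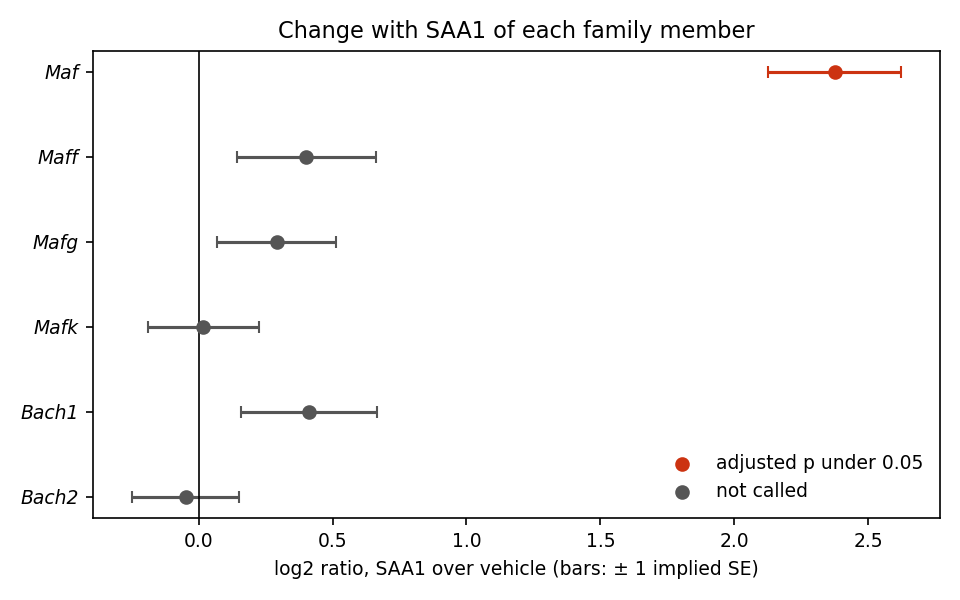
Log2 ratio of SAA1 over vehicle for each gene, with bars of 1 SE as implied by the authors' test statistic; red marks an adjusted p under 0.05 and grey a gene not called. Maf stands at 2.37, and the other 5 genes lie between -0.05 and 0.41.

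The order of the levels within the family changed at 1 place. With vehicle it ran Bach2, Mafk, Mafg, Maff, Maf and Bach1. With SAA1, Maf stood above Maff and the rest kept their order. Whether neighbours in this order, such as Mafk at 23.7 and Mafg at 22.8 FPKM with SAA1, differ beyond the spread of libraries could not be judged from 1 value per group. Of the summed FPKM of the 6 genes, 81.3 with vehicle and 99.4 with SAA1, Maf made up 3.53% and 15.0%, and Bach2 35.0% and 27.7%. The ratio of Bach2 to Maf transcripts, in FPKM, was 9.90 with vehicle and 1.85 with SAA1, and that of the summed small Maf genes to Maf was 16.7 and 3.66.

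Set among 10701 genes that reached 1 FPKM in one or both groups, the level of Maf lay at percentile 14.0 with vehicle and at percentile 47.9 with SAA1. Bach2 was at percentile 66.8 and 66.0, Mafk at 61.1 and 62.0, and Bach1 at 9.05 and 11.7. By log2 ratio among tested genes, Maf was at percentile 99.4, Bach1 at 90.8, Maff at 90.6, Mafg at 86.8, Mafk at 56.4 and Bach2 at 44.0. The genes nearest to Maf by distance in log2 FPKM over the 2 group values were Mir22, Ahr and Nt5dc2. Ahr, the aryl hydrocarbon receptor, was at 3.58 and 11.5 FPKM (distance 0.49) and Nt5dc2 at 2.61 and 9.41 FPKM (0.68). Mir22, a microRNA row at 2.79 and 14.6 FPKM (0.05), had an SE of 20.96 on its log2 ratio of 2.39 and an adjusted p of 0.86 by the authors' deposited table. A likeness over 2 values describes little more than level and fold.

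**Figure D3:**
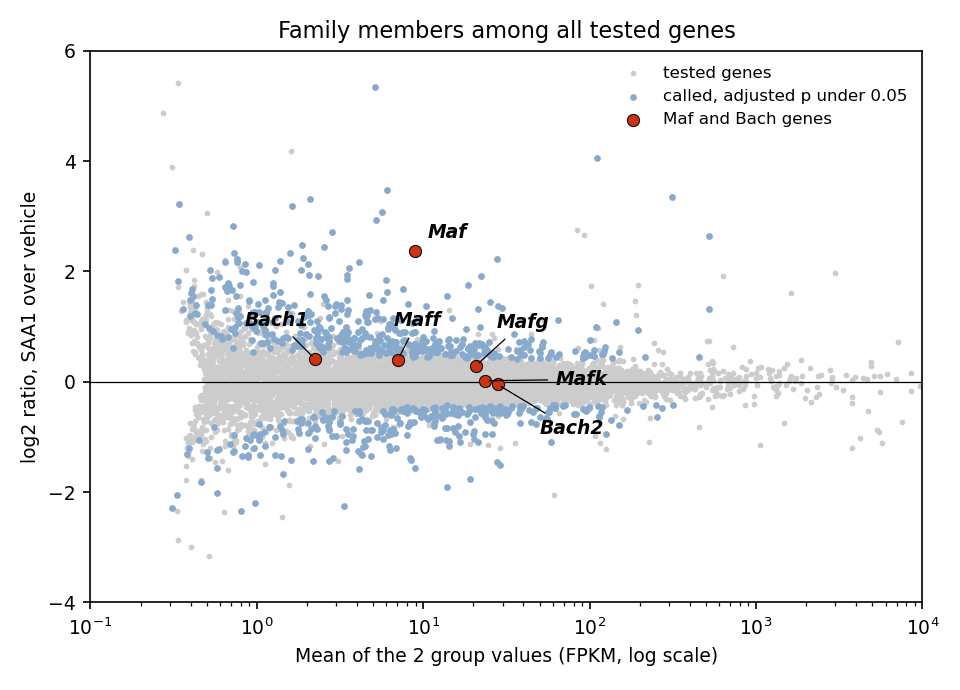
Log2 ratio of SAA1 over vehicle against the mean of the 2 group values in FPKM (log axis) for the tested genes, with called genes in blue and the 6 Maf and Bach genes in red with black edges. Maf lies in the upper margin of the cloud at a log2 ratio of 2.37, and the other 5 are not called; 78 tested genes with a value of 0 are not drawn and 16 lie outside the axes.

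The member genes lie on different chromosomes, and their rows cover unequal parts of the gene models. Coordinates are on mm10, with starts counted from 1, from the authors' table. Maf is on chromosome 8 from 115703253 to 115706894, on the minus strand by GENCODE M21, and its row spans 3.64 kb, or 14.7% of the 24.9 kb that GENCODE M21 gives to its 2 transcripts. The row lies within both transcripts, near their start, and the far end of the longer transcript is outside it. Bach2, on chromosome 4 from 32417435 to 32586108, has a row that covers 48.6% of its GENCODE span, and Mafg, on chromosome 11 from 120628351 to 120633547, 61.3%. The rows of Maff (chromosome 15, from 79347678 to 79359076), Mafk (chromosome 5, from 139791536 to 139802652) and Bach1 (chromosome 16, from 87698954 to 87733346) cover 91.5%, 99.8% and 99.97%. Each interval is the whole span of a row, with any introns inside it.

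No other row of the table lies within 300 kb of Maf, so there was no neighbour to compare it with. Of the neighbours of the other members within 300 kb, 2 were called, both near Mafg, beside 6.52% of all tested genes. Mafg also had the most tested neighbours, 29, against 11 for Maff, 5 each for Bach1 and Bach2, and 3 for Mafk. Lrrc45, a centrosomal linker protein, rose from 7.82 to 13.0 FPKM and Slc25a10, a mitochondrial dicarboxylate carrier, from 6.39 to 10.1 FPKM, each with an adjusted p of 0.0019 by the authors' deposited table.

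Of the relatives of Maf, Mafa, the large Maf gene of pancreatic beta cells, was at 0.0639 and 0.150 FPKM, and Nrl, that of rod photoreceptors, at 0 and 0.0110 FPKM. Neither was tested by the authors. Markers of macrophages, dendritic cells and B cells, which also carry Maf or Bach2, were low. Over 11 macrophage and dendritic cell markers in the table the summed level was 2.21 FPKM with vehicle and 1.47 FPKM with SAA1, with C1qa, C1qb and Cd209a at 0 in both groups and Cd68 highest at 1.58 and 1.05 FPKM. Over 7 B cell markers the sum was 3.53 and 2.40 FPKM, with Cd79a at 0.440 and 0.236 FPKM. Ebf1 was the highest of them at 1.49 and 0.811 FPKM (adjusted p 0.063 by the authors' deposited table). Pax5, at 0.110 and 0.188 FPKM, and Cd22, at 0.0289 and 0.0547 FPKM, were higher with SAA1 and untested. The locus of Pax5 holds another row. The 7 T cell markers summed to 1200.1 and 1139 FPKM, with Cd4 at 162 and 131 FPKM. Of these 7, Thy1 was called higher (66.0 to 96.8 FPKM) and Cd3e lower (39.1 to 28.2 FPKM, adjusted p 0.039 by the authors' deposited table). The 4 markers of regulatory T cells summed to 90.0 and 87.5 FPKM, nearly all from Il2ra, which activated T cells also carry, at 83.4 and 81.0 FPKM. Of the rest, Nrp1 was at 4.16 and 3.52 FPKM in a locus shared with another row, and Ikzf2 at 2.24 and 2.80 FPKM. Foxp3, the defining factor, was at 0.169 and 0.184 FPKM in a locus shared with other rows. The 6 markers of CD8 T and natural killer cells summed to 38.2 and 35.9 FPKM, most of it from Nkg7 at 33.5 and 31.4 FPKM. Cd8b1 was at 4.32 and 4.24 FPKM and Cd8a at 0.164 and 0.103 FPKM. Eomes was at 0.180 and 0.154 FPKM, Ncr1 at 0 and 0.0178 FPKM, and Klrb1c at 0 in both groups. Of 5 listed markers of gamma-delta T cells, 2 had a row: Sox13 at 0.173 and 0.104 FPKM and Blk at 0.129 and 0.148 FPKM, both untested. The receptor genes Trdc and Tcrg-C1, and Scart2, had none, so these cells could hardly be judged. The part of these cells in the rise of Maf was not tested.

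The CNC partners of the small Maf proteins and their regulators gave 6 tested genes. Of these, 0 were called at an adjusted p under 0.05 in the authors' Cuffdiff test and 1 had an unadjusted p under 0.05. With 6.52% of all tested genes called, a count of 0 among 6 is near that background. Nfe2l2, which encodes Nrf2, the activator that opposes Bach1 at antioxidant genes, was at 15.2 and 14.9 FPKM, and Keap1, the adaptor that marks Nrf2 for degradation, at 34.9 and 36.4 FPKM. Nfe2l1, a CNC factor of proteasome genes, was at 45.1 and 48.2 FPKM, and Cul3, the ubiquitin ligase scaffold that works with Keap1, at 76.6 and 71.6 FPKM. Nfe2, the CNC factor of the megakaryocyte and red cell lineages, was the gene with the unadjusted p under 0.05: it was at 0.235 and 0.709 FPKM, with a log2 ratio of 1.59 ± 0.72 and an adjusted p of 0.082 by the authors' deposited table. Their median log2 ratio was 0.08.

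The antioxidant, iron and other genes listed as targets of Nrf2 or Bach1 gave no call. Of 19 tested genes among 21 listed, 0 passed at an adjusted p under 0.05 in the authors' Cuffdiff test. With 6.52% of all tested genes called, a count of 0 among 19 is near that background. An unadjusted p under 0.05 was given to 2 of the 19. Hmox1, the haem oxygenase that is the classic Bach1 target, was at 5.86 and 6.32 FPKM (log2 ratio 0.11, adjusted p 0.91 by the authors' deposited table). The 2 genes were Gclm, the modifier subunit of glutathione synthesis, at 12.3 and 9.32 FPKM, and Blvrb, a biliverdin reductase, at 1.61 and 2.62 FPKM, with adjusted p of 0.15 and 0.24 by the authors' deposited table. Txnrd1, a thioredoxin reductase, was at 121 and 113 FPKM in a locus shared with another row. Fth1, the ferritin heavy chain, was at 103 and 89.3 FPKM. The log2 ratios ran from -0.41 to 0.71 with a median of 0.03.

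Of 12 tested genes of haem synthesis and Bach1 turnover, 1 was called higher and 0 lower at an adjusted p under 0.05 in the authors' Cuffdiff test. That share of 8.33% is near the 6.52% of all tested genes. Cpox, the coproporphyrinogen oxidase of haem synthesis, rose from 28.4 to 38.6 FPKM, a log2 ratio of 0.44 ± 0.20 with an adjusted p of 0.030 by the authors' deposited table, a call lost at a threshold of 0.01. Alas1, which starts haem synthesis, was at 19.9 and 20.7 FPKM, and Fbxo22, a ubiquitin ligase subunit that acts on Bach1, at 24.3 and 23.8 FPKM in a locus shared with another row. Xpo1, the nuclear export receptor that carries Bach1, was at 198 and 177 FPKM. Over the 12, the median was -0.12 on the log2 scale.

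Genes reported as Maf targets in T cells were called in both directions. Of 14 tested genes among 15 listed, 6 were called higher and 1 lower at an adjusted p under 0.05, against 3.97% and 2.55% of all tested genes. The cytokine genes Il17a, Il17f and Il21 rose, with log2 ratios of 3.34, 2.64 and 1.08, as did Ctla4, an inhibitory receptor (1.31), and Il23r, the IL-23 receptor (0.52). Il22, a cytokine that Maf is reported to repress, fell from a low level, 1.59 to 0.348 FPKM, with a log2 ratio of -2.19 ± 0.71. Its call, like that of Il23r, was lost at a threshold of 0.01. The IL-17 and IL-23 receptor genes also mark Th17 cells, the list was drawn up with earlier results of these data known, and a link to the level of Maf was not tested. Over the 14, log2 ratios had a median of 0.63.

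The other targets did not pass the test, among them the best known one. Il10 was at 0.148 and 0.602 FPKM, with a log2 ratio of 2.02 ± 1.04 and an adjusted p of 0.20 by the authors' deposited table. Il9, another cytokine of the list, was at 0.239 FPKM with vehicle and 24.4 FPKM with SAA1. Its log2 ratio of 6.67 ± 1.54 had an unadjusted p of 0.11 and an adjusted p of 0.49 by the authors' deposited table. That unadjusted p is larger than a normal distribution gives for the deposited statistic of Il9, which is 1.4e-05 (two-sided). The 95% interval of Il9 runs from 12.6-fold to 822-fold, and the cause of the mismatch was not tested. Il2, which Maf is reported to repress, was at 2177 and 1767 FPKM (adjusted p 0.26 by the authors' deposited table). Lif was at 65.8 and 78.1 FPKM, Icos at 55.2 and 54.2 FPKM, Pdcd1 at 144 and 135 FPKM, and Cxcr5 at 1.72 and 2.62 FPKM. Il4, a cytokine of Th2 cells, was at 0.119 and 0.232 FPKM and was not tested.

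Promoter sequences are shown for those called targets whose start region holds the half-site that Maf proteins read, TGCTGA, to let the letters be seen beside the values. RefSeq windows of the 250 bases before a start (build GRCm38.p6) were searched on both strands. Of the 7 called targets, 6 had a window and 3 of these held the half-site, shown in capitals below, 5′ to 3′ on the strand of the gene. Of all 32851 windows, 16.1% hold it. The windows are Il17a at chr1:20730655-20730904 (plus strand), Il21 at chr3:37232637-37232886 (minus strand) and Il23r at chr6:67491856-67492105 (minus strand).
Il17a: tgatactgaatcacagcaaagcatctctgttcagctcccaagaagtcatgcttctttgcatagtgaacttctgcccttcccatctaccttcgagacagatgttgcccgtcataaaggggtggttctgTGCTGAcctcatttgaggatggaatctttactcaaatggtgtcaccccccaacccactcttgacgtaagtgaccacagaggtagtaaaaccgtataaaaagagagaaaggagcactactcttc
Il21: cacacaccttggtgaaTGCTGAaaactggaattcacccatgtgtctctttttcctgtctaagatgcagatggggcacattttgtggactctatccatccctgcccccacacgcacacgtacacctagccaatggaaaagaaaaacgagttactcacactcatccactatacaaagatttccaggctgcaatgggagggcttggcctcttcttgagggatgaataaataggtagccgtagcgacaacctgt
Il23r: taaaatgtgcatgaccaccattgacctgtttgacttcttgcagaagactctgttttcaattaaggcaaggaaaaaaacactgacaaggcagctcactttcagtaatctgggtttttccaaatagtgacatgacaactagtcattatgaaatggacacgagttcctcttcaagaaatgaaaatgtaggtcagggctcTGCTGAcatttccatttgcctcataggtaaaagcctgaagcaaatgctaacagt
The half-site begins 123 bases before the start in Il17a, 234 bases before it in Il21 and 54 bases before it in Il23r. A match is a description of letters and not a binding site.

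The AP-1 site TGACTCA was in the windows of 0 of the 6 called targets, of 0 of the members with a window and of 4.46% of all windows, and its letters can overlap the half-site. The antioxidant response element core TGACNNNGC, which can overlap it too, was in that of Il23r and in 10.2% of all windows. Of the members, 5 had windows, 7 in number since Maff has several starts. The half-site was in those of Mafk and Bach1, and the antioxidant response element core in those of Maff, Mafg and Mafk.

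Genes reported as repressed by Bach2 were mostly untested at low values, with Bach2 itself at 28.4 and 27.5 FPKM. Of 10 listed genes, 4 were tested, 1 was called higher and 1 lower at an adjusted p under 0.05 in the authors' Cuffdiff test, beside 3.97% and 2.55% of all tested genes. Nfil3, a bZIP factor of circadian and lymphoid genes, rose from 9.32 to 15.6 FPKM, a log2 ratio of 0.74 ± 0.23 with an adjusted p of 0.0019 by the authors' deposited table. Gata3, the Th2 factor, fell from 1.36 to 0.687 FPKM (adjusted p 0.020 by the authors' deposited table), a call lost at a threshold of 0.01. Gzmb, which encodes granzyme B, was at 3.53 and 2.55 FPKM, and Prdm1, which encodes Blimp-1 and is a known target of Bach2, at 0.0169 and 0.0303 FPKM, untested. Among the 4 tested genes the median log2 ratio was -0.06.

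Partners and rivals of Bach2 at AP-1 and composite sites gave 3 calls among 11 tested genes, all higher, against 3.97% of all tested genes. Irf8, an interferon regulatory factor that pairs with Batf proteins, rose from 8.45 to 28.5 FPKM (log2 ratio 1.75 ± 0.22). Batf3 rose from 2.06 to 5.04 FPKM (1.29 ± 0.43, adjusted p 0.0059 by the authors' deposited table), and Fosl2, an AP-1 subunit, from 25.8 to 39.0 FPKM (0.60 ± 0.20). Irf8 and Fosl2 had an adjusted p of 0.0019 by the authors' deposited table, and with a normal p of the deposited statistic Irf8 alone of the list was called. The most abundant genes of the list were not called, with Junb at 688 and 729 FPKM, Batf at 208 and 194 FPKM, Irf4 at 160 and 168 FPKM and Jund at 113 and 100.5 FPKM. The median log2 ratio of the 11 was 0.35.

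Of 11 tested genes reported to act upstream of Maf, 1 was called, higher, at an adjusted p under 0.05, a share of 9.09% that is near the 6.52% of all tested genes. Ahr, given above as the called gene closest to Maf in level and fold, had a log2 ratio of 1.69 ± 0.22. Stat3, the factor below the IL-6, IL-21 and IL-23 receptors, was at 112 and 133 FPKM (adjusted p 0.40 by the authors' deposited table). Il6ra, the IL-6 receptor, was at 4.88 and 6.71 FPKM (0.076), Tgfbr1, a TGF-beta receptor, at 10.7 and 14.0 FPKM (0.098), and Il21r, the IL-21 receptor, at 108 and 84.6 FPKM (0.12). Log2 ratios of the 11 had a median of 0.03.

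**Figure D4:**
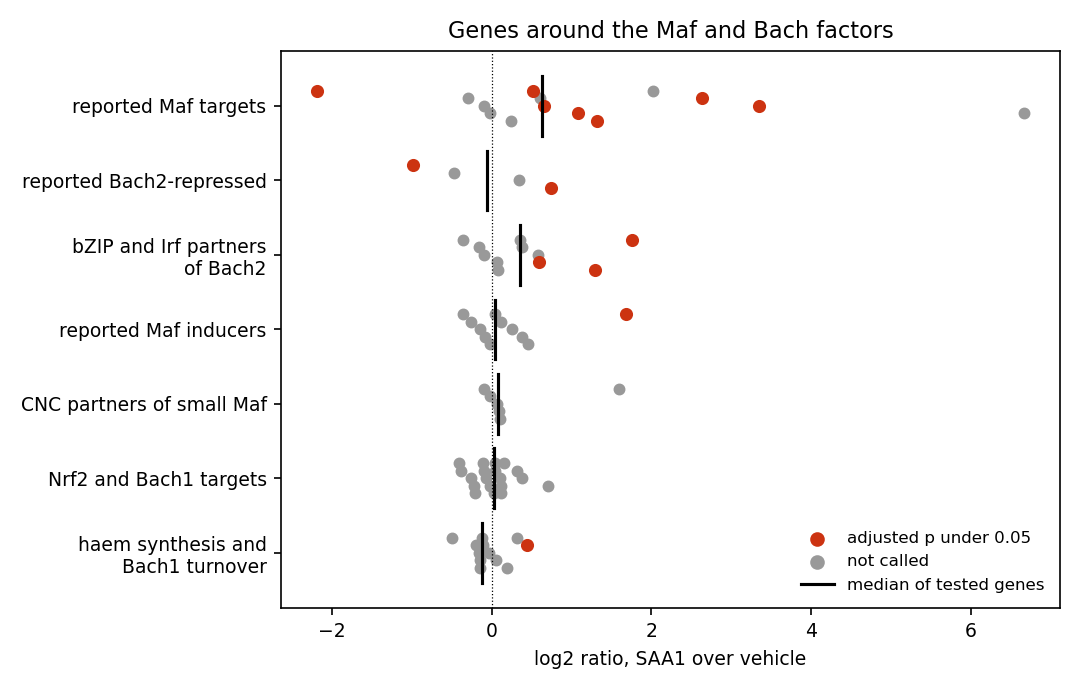
Log2 ratio of SAA1 over vehicle for each tested gene of 7 lists around the Maf and Bach factors, with red points for an adjusted p under 0.05, grey points for genes not called and a black line at the list's median. The medians run from -0.12 for haem synthesis and Bach1 turnover to 0.63 for the reported Maf targets, and the far right grey point is Il9.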

How the data were processed

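RNA of 4 libraries, 2 vehicle and 2 SAA1 by their titles, was sequenced after Illumina TruSeq preparation, per the labels' protocols. TopHat2, Cuffdiff and the builds mm9 and mm10 are named in the submitters' processing notes, without the settings used. The authors deposited 1 Cuffdiff table with an FPKM value per group. Its p-value and q-value columns (the adjusted p here) and its test statistic, a score that scales the log ratio by its SE, are the authors' own as deposited, per the file headers. Of 23356 rows, 11481 were tested. The q-value is the Benjamini-Hochberg adjustment over the tested rows, to within 5.23e-07. Log2 ratios were recomputed from FPKM without a pseudocount, and SEs as that ratio over the statistic (Python 3.11.15, pandas 2.3.3). A gene was called at an adjusted p under 0.05. Row loci overlap the GRCm38 (mm10) positions of all 6 members in GENCODE M21. The adjustment was tested on simulated data. The members and lists were chosen with earlier results of these data known. All members were named, with up to 8 called genes and up to 4 of the most abundant per list and the 3 genes nearest to Maf; other list genes were chosen after their values were seen, and some named by the rule are not reported here. A limma test foreseen for values per library could not be run. Alternatives were other thresholds (0.01, 0.1), adjustment over rows with at least 1 FPKM, a 1.5-fold minimum, pseudocounts of 0.1 and 1, centring on the median and, added after the data were seen, a normal p of the statistic.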

Additional observations from a re-analysis of the deposited data

How the results depend on the processing

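Maf was the 1 member called under each of the thresholds of 0.01 and 0.1, the adjustment over rows with at least 1 FPKM, the 1.5-fold minimum and the normal p of the deposited statistic, and no other member was called under any of them. Its log2 ratio was 2.33 with 0.1 FPKM added, 2.04 with 1 FPKM added and 2.39 centred on the median, and no member changed sign under these. Over all tested genes, 749 were called, 436 at 0.01 and 247 by the normal p. At 0.01, 0 haem genes were higher, and 0 reported Maf targets and 0 Bach2-repressed genes were lower. At 0.1, 1 CNC partner was higher, 1 haem gene lower and 3 reported Maf inducers higher. With the 1.5-fold minimum, 0 haem genes were higher. By the normal p, 0 haem genes and 1 Bach2 partner were higher, and 0 reported Maf targets and 0 Bach2-repressed genes were lower. Reported Maf targets called higher still numbered 6, with Il9 now among them (normal p 1.4e-05) and Il23r no longer (0.026). The cause of these shifts was not tested, beyond the threshold each alternative sets.

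No paired analysis was possible because the table gives 1 value per group, and leaving out each replicate was not run for the same reason. Depth is unknown, and the upper 95% bound of Bach1 and of Maff is 1.88-fold.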

Other observations

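Over the whole bZIP family, a list of 53 genes written after the data were seen and given as a description, 42 were tested, 6 were called higher and 0 lower in the authors' deposited table (14.3%, against 6.52% of all tested genes in either direction). Maf had the largest log2 ratio of the 42. The others called were Jdp2, an AP-1 repressor, from 0.557 to 1.47 FPKM, Batf3, Nfil3, Fosl2 and Crem, a cAMP-responsive factor whose locus holds another row, from 31.8 to 49.2 FPKM. With the normal p of the deposited statistic, Maf and Nfil3 kept their calls, while Jdp2, Batf3, Fosl2 and Crem lost theirs. By level among the 53, Maf stood 30th with vehicle and 24th with SAA1, and Bach2 stood 10th with vehicle. Junb at 688 FPKM and Atf4 at 394 FPKM led the family with vehicle. The median log2 ratio of the 42 was 0.11, beside -0.02 over all tested genes.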
